A study of Hipposideros armiger with 2 samples.

Results

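Acute phase reactants are plasma proteins whose blood level changes during infection or injury. The set described here has 10 members: CRP, SAA1, ORM1, LBP, ITIH3, ITIH4, SERPINA1, SERPINA3, APCS and FGL1. Members were found by name, as the assembled genes whose best protein match, in capitals, equals a member. This gave 8 of the 12783 distinct names in the tables. No row used here had the name CRP or APCS, the short pentraxins that bind microbial and damaged-cell surfaces, and both were not analysed here. The 8 members found took up 32 assembled genes, from 2 for SAA1, ORM1, LBP, SERPINA1 and SERPINA3 to 11 for ITIH3.

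In mammals, interleukin-6 from macrophages and other cells binds its receptor on hepatocytes and activates STAT3, while interleukin-1 acts through NF-kB and C/EBP factors. Hepatocytes then make more of the positive acute phase proteins and less of the negative ones, such as albumin and transthyretin. Several of these proteins are also made outside the liver, among them LBP, SERPINA3 and haptoglobin in airway epithelium.

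The samples were 2 wild-type great Himalayan leaf-nosed bats (Hipposideros armiger), wild-caught animals of the CW cave, both labelled as liver and as exposed to heavy metals. The labels give replicate 2 as an adult male and give no sex or age for replicate 1; the series' design text describes adult males in each cave. Messenger RNA was captured with oligo(dT) beads and sequenced, and all values are for RNA, not protein. Bats from the second cave are not used here. The data therefore hold 1 group, no unexposed animals and no test between groups. Every ratio below is of 1 library over 1 library, has no replicate check and has no p-value.

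The libraries, replicate 1 and replicate 2 of the group, are called CW1 and CW2 below. They held 18741214 expected counts in CW1 and 18778280 in CW2 after rounding. The liver label was checked against marker genes. The 12 hepatocyte markers summed to 12212 TPM (transcript abundance per length, scaled to a common total) in CW1 and 444 TPM in CW2, a 27.5-fold difference in TPM. The 12 markers of airway and alveolar epithelium summed to 12453 TPM in CW1 and 19818 TPM in CW2. Markers of lung epithelium were thus present in both libraries labelled liver, and above the hepatocyte markers by a wide margin in CW2. The values of the members below stand beside these marker levels, whose part in them was not tested. In bulk tissue, fewer hepatocytes and less RNA of a gene per hepatocyte cannot be told apart.

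Together the members held 2527 TPM in CW1 and 110 TPM in CW2, a 22.9-fold difference in summed TPM. In counts this was 28825 against 1856, or 0.154% of all counts in CW1 (Wilson 95% interval 0.152% to 0.156%) and 0.00988% in CW2 (0.00944% to 0.0103%). Members reached 10 TPM in 7 of 8 cases in CW1 and in 4 of 8 in CW2. The share of all names at that level is not given here. ORM1 and ITIH4 led the set in CW1, with 43.8% and 34.5% of its summed TPM, whereas in CW2 ITIH4 led with 35.9%, ahead of ORM1 with 22.0% and SERPINA3 with 17.7%. SERPINA3 made up 2.45% of the sum in CW1. All intervals here and below cover counting error alone: the reads carry no molecular identifiers, so several can stem from 1 molecule.

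**Figure D1:**
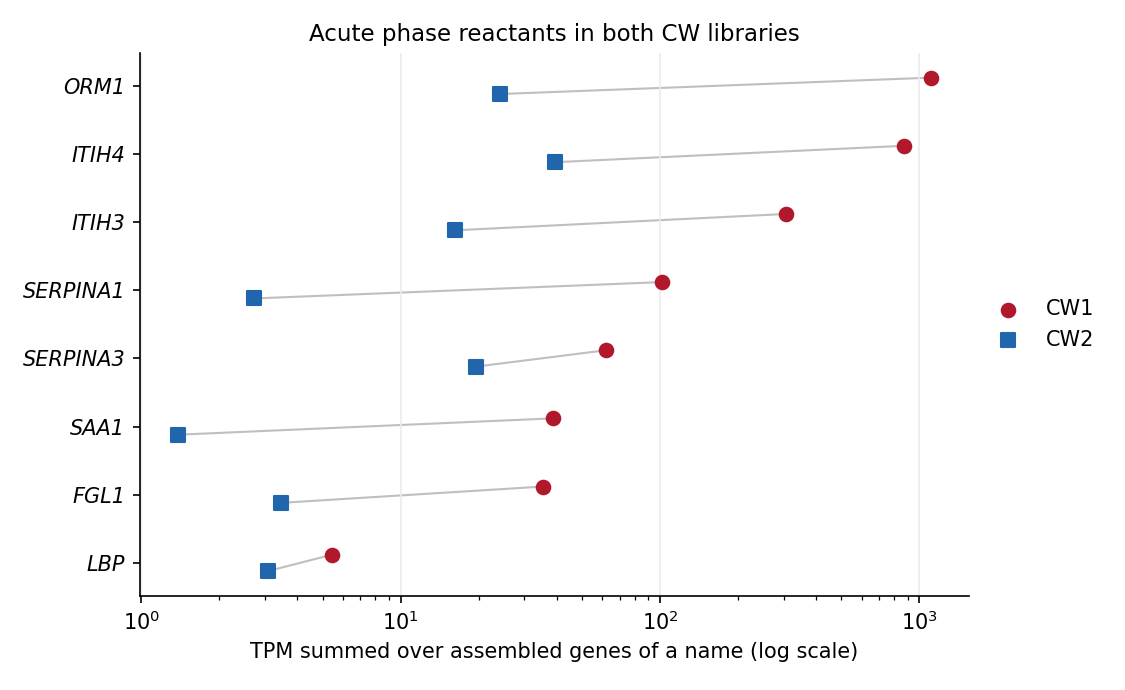
TPM of the 8 members found (horizontal, log scale), summed over the assembled genes of each name, with CW1 as circles and CW2 as squares joined by a line. All 8 members lie further right in CW1, ORM1 by the longest line (1107 and 24.2 TPM) and LBP by the shortest (5.44 and 3.09 TPM).

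SAA1 is a serum amyloid A, a small apolipoprotein of high-density lipoprotein that can reach very high blood levels in inflammation. It was at 38.6 TPM in CW1 and 1.38 TPM in CW2, from 342 and 11 counts. The exact Poisson 95% intervals of these counts were 307 to 380 in CW1 and 5.49 to 19.7 in CW2. They do not overlap. All of its counts came from 1 assembled gene of 636 bases whose best match is the cat protein. A second assembled gene, best matched to mouse Saa1, was listed at 0 in both libraries. The related name SAA2 was more abundant, at 470 TPM in CW1 and 26.8 TPM in CW2. Serum amyloid A genes are close paralogs, so reads could be divided between SAA1 and SAA2, and the level of each alone is uncertain.

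ORM1, or alpha-1-acid glycoprotein, is a lipocalin that carries basic and lipophilic drugs in plasma. It was the highest member in CW1, at 1107 TPM, and stood at 24.2 TPM in CW2, from 12806 and 255 counts. By TPM it ranked 49th of all names in CW1 and 3035th in CW2. Its paralog ORM2 was at 89.3 TPM in CW1 and 10.7 TPM in CW2, and reads could be divided between them as well. A second ORM1 assembled gene, best matched to mouse, had 3 and 7 counts and so the opposite order, but the interval of its ratio included equality (0.514-fold, 95% counting interval 0.0857 to 2.25).

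LBP binds bacterial lipopolysaccharide and hands it to CD14 and the TLR4 receptor. It was the lowest member in CW1, at 5.44 TPM, and was at 3.09 TPM in CW2. Its 220 counts in CW1 (exact Poisson 95% interval 192 to 251) and 132 in CW2 (110 to 157) differ by more than counting error. LBP was the member with the smallest difference between the libraries. It ranked 8332nd by TPM in CW1 and 10751st in CW2.

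ITIH3 and ITIH4 are heavy chains of the inter-alpha-trypsin inhibitor family; ITIH3 can be linked to hyaluronan of the extracellular matrix, and ITIH4 circulates as a separate glycoprotein. ITIH3 was at 306 TPM in CW1 and 16.2 TPM in CW2, from 5594 and 237 counts. ITIH4 was at 871 TPM in CW1 and 39.5 TPM in CW2, from 6244 and 409 counts. Both were far higher in CW1. Their names cover 11 and 8 assembled genes, on which the tables place the VIT, VWA and ITI_HC_C domains of the family separately, so a sum of TPM can count a single transcript several times. The assembled gene with the most counts alone was at 148 TPM in CW1 and 4.70 TPM in CW2 for ITIH3, and at 406 and 18.4 TPM for ITIH4. A 335-base ITIH4 piece added 377 TPM in CW1 from 447 counts and 19.4 TPM in CW2 from 16 counts, almost as much TPM as the 4054-base assembled gene with 4803 and 360 counts.

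SERPINA1, alpha-1-antitrypsin, inhibits neutrophil elastase, and SERPINA3, alpha-1-antichymotrypsin, inhibits cathepsin G and chymases. SERPINA1 was at 102 TPM in CW1 and 2.73 TPM in CW2, from 326 and 8 counts on assembled genes of 367 and 396 bases. For CW2 those 8 counts leave an exact Poisson 95% interval of 3.45 to 15.8. SERPINA3 was at 62.0 TPM in CW1 and 19.6 TPM in CW2, from 2565 and 767 counts. The serpins changed order: SERPINA1 was above SERPINA3 by TPM in CW1 and below it in CW2. Both SERPINA3 assembled genes matched the orangutan protein and had the same ratio, 4.01-fold each, with 84.1% of the counts on the longer one in either library.

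FGL1, a fibrinogen-like protein that hepatocytes secrete and that binds the T cell receptor LAG3, was at 35.6 TPM in CW1 and 3.46 TPM in CW2. Its 728 and 37 counts came mostly from a 1502-base assembled gene with a fibrinogen C-terminal domain.

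The order of the members by TPM in CW1 was ORM1, ITIH4, ITIH3, SERPINA1, SERPINA3, SAA1, FGL1 and LBP. SAA1 at 38.6 TPM and FGL1 at 35.6 TPM were neighbours there with a small gap. In CW2 the order was ITIH4, ORM1, SERPINA3, ITIH3, FGL1, LBP, SERPINA1 and SAA1. The last 4 lay between 1.38 and 3.46 TPM on 8 to 132 counts. Spearman's rho between the libraries over the 8 members was 0.67, a description of 8 genes that share libraries. TPM is per length, but the summed TPM of names split over many pieces is not comparable to that of names with a single long assembled gene.

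For ratios, rounded counts were summed by name, scaled with edgeR's TMM factors, and compared as log2 of CW1 over CW2 on CPM (counts scaled to a common library total) plus 1, less the median of all names. A positive value is higher in CW1. Of the 8 members found, 7 were over 2-fold higher in CW1, and LBP lay within 2-fold. Of all 11289 names tested, 5.16% were over 2-fold higher in CW1 and 0.0266% over 2-fold lower, or 5.19% in either direction. Over 8-fold, a threshold chosen after the values were seen, were 6 members and 1.75% of all names. The median log2 ratio of the 8 members was 3.90, and that of all names is 0 by construction. SAA1 and SERPINA1 had under 1 CPM in CW2 and met the filter, a mean of at least 1 CPM, through CW1, so they had to be higher there; these counts and this median are descriptions.

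ORM1 had the largest log2 ratio of the members, 5.80, which without the added pseudocount was 60.2-fold (95% counting interval 53.2 to 68.4). ITIH3 had a log2 ratio of 4.71, or 28.3-fold (24.8 to 32.4), and ITIH4 one of 4.13, or 18.3-fold (16.6 to 20.3). Their intervals do not overlap each other, so these 3 members differed from one another in this ratio by more than counting error, but with TPM the order of ITIH3 (4.49) and ITIH4 (4.76) turned round. FGL1 had a log2 ratio of 3.95 and was 23.6-fold higher (17.0 to 33.8). SERPINA1 had one of 3.84 and was 48.9-fold higher (24.5 to 114), and SAA1 one of 3.77 and was 37.3-fold higher (20.6 to 75.4). For these low-count members the pseudocount shrinks the log2 ratio, and the wide intervals overlap. SERPINA3 stood apart with a log2 ratio of 1.97, 4.01-fold (3.70 to 4.35). LBP lay lower still, at 0.90, 1.998-fold without the pseudocount (1.60 to 2.50), on the edge of the 2-fold limit.

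**Figure D2:**
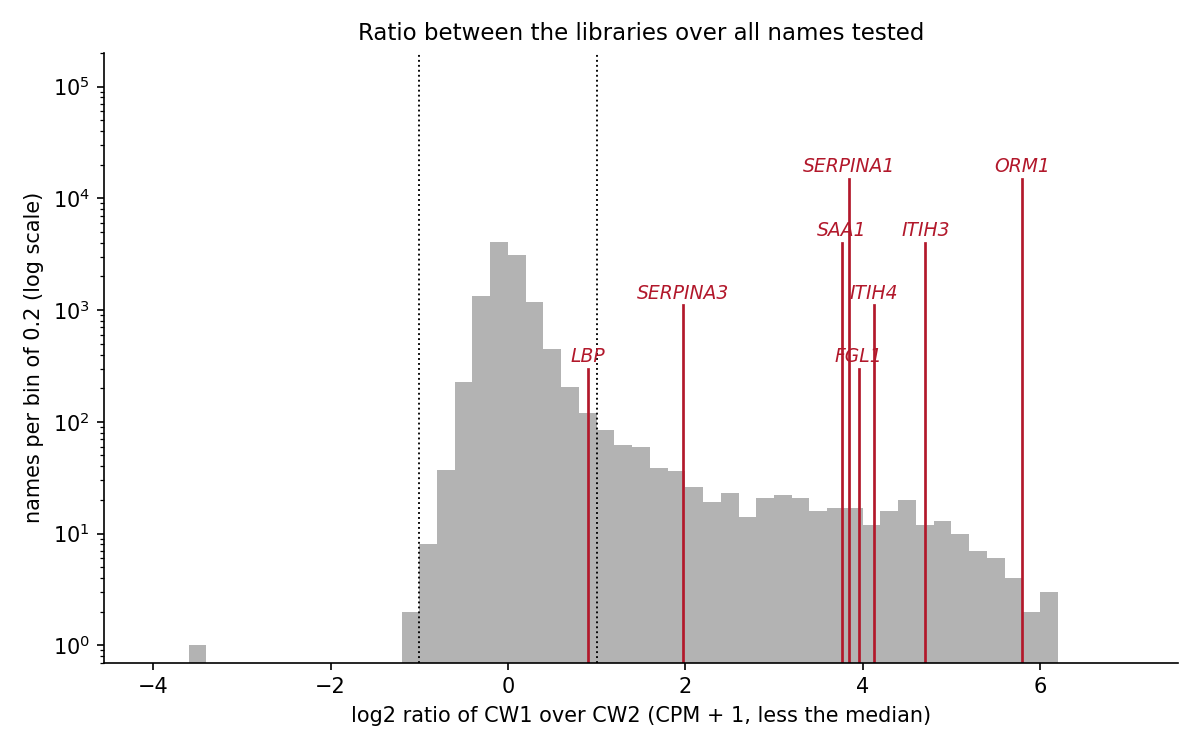
Histogram of the log2 ratio of CW1 over CW2 for the 11289 names tested (vertical, log scale), with the 8 members as red lines of arbitrary height and dotted lines at 2-fold. Most names lie near 0; LBP (0.90) and SERPINA3 (1.97) stand left of the other 6 members, which lie between 3.77 and 5.80.

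The assembled genes behind the members were compared singly. Of 32, 17 had at least 100 counts summed over both libraries, and 16 of these were over 2-fold higher in CW1, the exception being LBP. Among all named assembled genes with as many counts, 5.74% were over 2-fold higher. In log2 ratio with the pseudocount, 12 of the 17 were over 8-fold higher, against 2.55% of all such assembled genes. The pseudocount kept an 887-base and a 758-base piece of ITIH3 under that limit (log2 ratios 2.61 and 2.73). Without it they were 58.8-fold and 19.6-fold higher. Pieces with few counts in CW2 met the limit of 100 counts through CW1 and had to be higher there, so the 16 and the 12 are descriptions. Without the pseudocount, folds of the 17 ran from 1.98 for LBP to 320 for a 1047-base piece of ITIH4. That piece had 533 counts in CW1 and 2 in CW2 (95% counting interval 88.0 to 2645). The main ITIH4 assembled gene, at 16.0-fold (14.4 to 17.9), lay below that interval. Pieces that carry the ITIH4 name therefore did not share a single ratio. A further ITIH4 piece of 1234 bases had 22 and 24 counts, 1.10-fold (0.588 to 2.05), and made up 0.352% of the ITIH4 counts in CW1 and 5.87% in CW2.

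ITIH3 showed a like spread. Its main assembled gene of 4847 bases was 26.4-fold higher in CW1 (23.0 to 30.5), while a 795-base piece with 430 and 5 counts was 103-fold higher (43.8 to 319). The main ITIH3 assembled gene also had 31.6 counts per TPM in CW1 and 45.3 in CW2, so the length over which its reads were weighted differed between the libraries, and its TPM and count ratios are not the same quantity. Of the 14 assembled genes with 1 to 99 summed counts, 11 had more counts in CW1 and 3 more in CW2. These counts are unscaled, some differ by a few reads, and no share of all such assembled genes is given, so this is a description. The tables give 4 of the 8 members a gene ontology term for the acute-phase response on at least 1 assembled gene, namely SAA1, ORM1, LBP and ITIH4. For SAA1 and ORM1 only the assembled gene best matched to mouse has the term. That one had 0 counts in both libraries for SAA1, and 3 and 7 counts for ORM1.

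**Figure D3:**
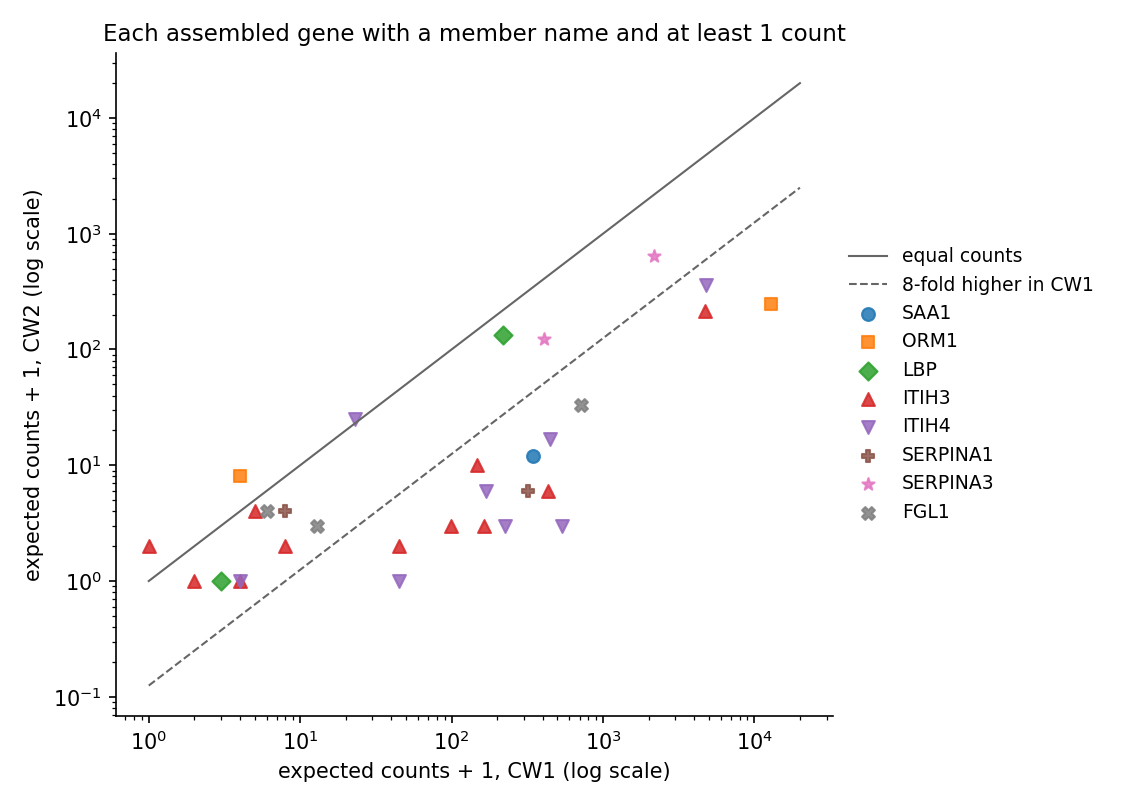
Expected counts plus 1 in CW1 (horizontal) and CW2 (vertical), unscaled and on log scales, for each assembled gene with a member's name and at least 1 count; the lines mark equal counts and 8-fold higher counts in CW1. Both SERPINA3 points and the main LBP point lie between the lines, and the 6 other members have their largest assembled gene below the 8-fold line.

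The hepatocyte markers themselves had a median log2 ratio of 4.42, with all 12 over 8-fold higher in CW1 and a range of 3.71 to 5.62. Of the 8 members, 5 lay inside that range: SAA1, ITIH3, ITIH4, SERPINA1 and FGL1. ORM1 lay above it, and SERPINA3 and LBP below. The summed TPM of these markers is an uneven scale: ALB held 7990 of 12212 TPM in CW1 and 176 of 444 TPM in CW2. CYP2E1 held 118 TPM in CW1 and 58.2 TPM in CW2. ALB, TTR, APOA1, SERPINC1 and FGB are also in the lists of acute phase proteins below. Set against the summed TPM of the hepatocyte markers in the same library, ITIH4 was at 71.3 per 1000 in CW1 and 89.0 per 1000 in CW2, and ITIH3 at 25.1 and 36.5. SAA1 was at 3.16 and 3.11 per 1000, ORM1 at 90.6 in CW1 and 54.6 in CW2, and SERPINA1 at 8.33 and 6.15. The scale matters for these: in log2 ratio less the hepatocyte median, SAA1 was at -0.65, SERPINA1 at -0.57 and ITIH3 at 0.29. SAA1, SERPINA1 and ITIH3 thus turned direction. SAA1 and SERPINA1 had under 1 CPM in CW2, where the pseudocount of 1 CPM shrinks the log2 ratio. With a pseudocount of 0.1 CPM their log2 ratios, before the hepatocyte median is taken off, were 4.98 and 5.29 in place of 3.77 and 3.84.

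On the scale of summed TPM 5 members, ITIH3 and ITIH4 among them, were higher in CW2 relative to the hepatocyte markers. FGL1, SERPINA3 and LBP differed more than these heavy chains. The share of all names higher in CW2 by this measure is not given here, so the 5 is a description. The ITIH3 value in CW2 leans on short pieces. Its 4847-base assembled gene gave 4.70 of 16.2 TPM there, from 213 counts, and a 204-base piece gave 5.11 TPM from 3 counts. FGL1 was at 2.91 per 1000 hepatocyte marker TPM in CW1 and 7.79 in CW2. Its CW2 value leans on short pieces with few counts, since the 1502-base assembled gene held 1.18 of its 3.46 TPM there. SERPINA3 was at 5.08 in CW1 and 44.0 in CW2, 8.68-fold higher in CW2. LBP was at 0.445 in CW1 and 6.96 in CW2, 15.6-fold higher in CW2. These values are ratios within a library and inherit the uncertainty of summed TPM. By the same measure the 12 airway markers summed to 1020 per 1000 hepatocyte marker TPM in CW1 and 44642 in CW2, 43.8-fold higher in CW2, and their part in the SERPINA3 and LBP values was not tested.

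**Figure D4:**
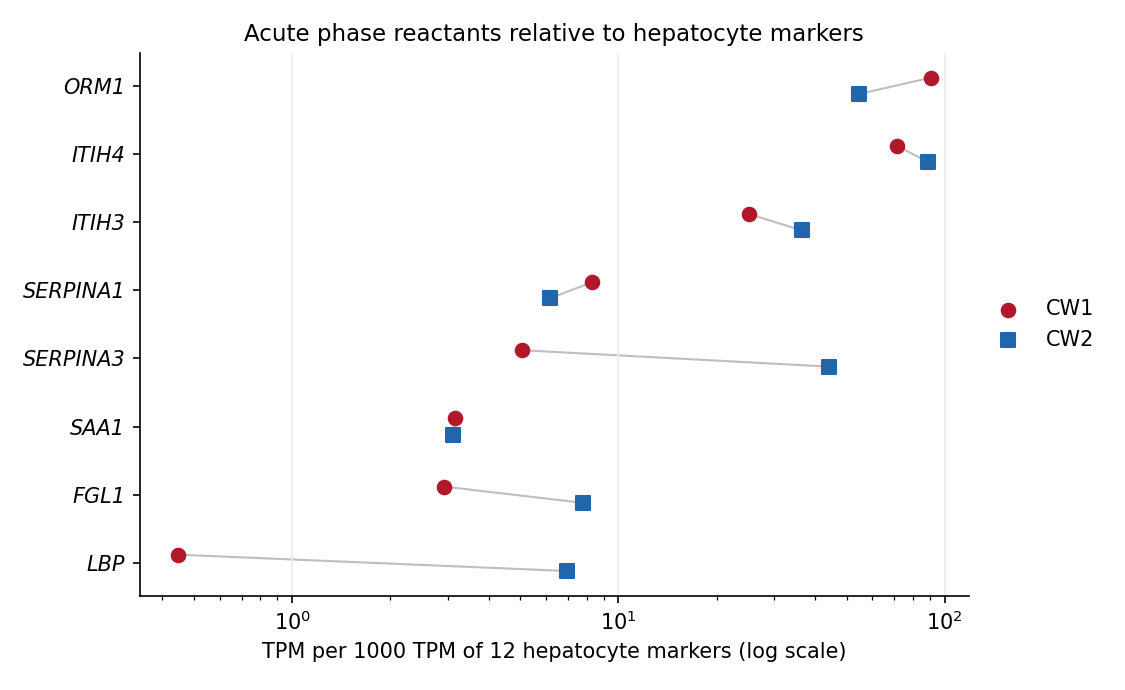
TPM of each member per 1000 TPM of the 12 hepatocyte markers in the same library (horizontal, log scale), CW1 as circles and CW2 as squares. SAA1, ORM1, ITIH3, ITIH4 and SERPINA1 lie close together in both libraries, while SERPINA3 (5.08 and 44.0) and LBP (0.445 and 6.96) lie far further right in CW2 than in CW1.

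Other positive acute phase proteins split between members that differed and members that did not. Of 22 found, 21 were tested; 12 were over 2-fold higher in CW1, 9 lay within 2-fold and 0 were over 2-fold lower, with a median log2 ratio of 1.82. These counts belong to a list chosen with earlier results of these data known. AMBP, which encodes bikunin, the light chain of the inter-alpha-trypsin inhibitor, was at 188 TPM in CW1 and 6.42 TPM in CW2 (log2 ratio 5.13). HPX, which carries free heme, had a log2 ratio of 4.44. SAA2 had one of 4.28, and ITIH2, a further heavy chain, one of 4.24. The chains of the clotting protein fibrinogen had log2 ratios of 4.21 (FGA), 3.98 (FGB) and 3.91 (FGG).

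Smaller differences were those of ORM2 (3.36), the complement pore protein C9 (2.89), the iron hormone HAMP (2.35), the complement protease CFB (1.82) and the copper-binding ferroxidase CP (1.24). With TPM in place of counts CP was at 0.59, within 2-fold, C9 at 3.53 and HAMP at 3.85; with the largest assembled gene alone HAMP was at 1.69. HP, haptoglobin, was at 5160 TPM in CW1 and 6997 TPM in CW2, with a log2 ratio of -0.04. LCN2, which binds bacterial siderophores, had a log2 ratio of -0.21 and complement C3 one of 0.74, or 1.00 with TPM, just over 2-fold. Thus the most abundant positive acute phase proteins of these libraries, HP and LCN2, did not have the ratio of ORM1 or ITIH4. Other names within 2-fold, given after their values were seen, included A2M (0.40), C4BPA (0.01), MBL2 (-0.17), SERPING1 (0.47) and ITIH1 (0.58).

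ITIH1, the heavy chain that joins ITIH2 and bikunin in inter-alpha-trypsin inhibitor, was at 55.0 TPM in CW1 and 48.5 TPM in CW2. Its 7 assembled genes fell apart: 4 had 2 to 60 counts in CW1 and 0 in CW2, and 3 had 15 to 121 counts in CW1 and 14 to 187 in CW2. The largest, with 121 and 187 counts, was 0.776-fold (95% counting interval 0.612 to 0.980). The summed ratio of ITIH1 therefore rests on pieces that differ in direction, and which of them are ITIH1 transcripts was not tested.

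Negative acute phase proteins were higher in CW1 as well. All 10 of 10 were over 2-fold higher there, with a median log2 ratio of 4.84, although this list shares ALB, TTR, APOA1 and SERPINC1 with the hepatocyte markers. The values were 6.11 for the fetuin FETUB, 5.29 for the apolipoprotein APOA2, 5.26 for ALB and 5.13 for the antithrombin SERPINC1. AHSG, another fetuin, had 5.10, the retinol carrier RBP4 4.58, the thyroid hormone and retinol-complex carrier TTR 4.51 and APOA1 4.33. The cortisol carrier SERPINA6 (3.66) and the iron carrier TF (1.52) were lower. SERPINA6 had 11 counts in CW2, under 1 CPM, and met the filter through CW1, so it had to be higher there. The TF value depends on the processing: TF was at 102 TPM in CW1 and 9.36 TPM in CW2, a log2 ratio of 3.64 with TPM, and it was 3.41 with the largest assembled gene alone and 3.45 without assembled genes best matched to mouse. The positive reactants among the members and the negative ones were thus on the same side. Within CW1, ORM1 at 1107 TPM stood beside ALB at 7990 TPM, and within CW2 ORM1 at 24.2 TPM beside ALB at 176 TPM.

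Upstream genes were mostly alike in both libraries. Of 19 cytokine and receptor names, 11 were found and 10 tested; 1 was over 2-fold higher in CW1 and the median log2 ratio was -0.04. IL1B, a cytokine that induces acute phase genes, was at 63.8 TPM in CW1 and 81.2 TPM in CW2. The TNF receptor TNFRSF1A was at 50.4 and 57.4 TPM, the receptor chain IL10RB at 36.6 and 35.4 TPM, and IL11RA at 28.9 and 37.0 TPM. The log2 ratios of IL1B, TNFRSF1A, IL10RB and IL11RA were -0.07, -0.05, -0.04 and 0.27. A TPM pair lacks the TMM scaling and the removal of the median, so it can differ in direction from the ratio, as for IL11RA. IL1RAP, the coreceptor for interleukin-1, was the exception, at 11.1 TPM in CW1 and 2.11 TPM in CW2 (log2 ratio 1.99). IL6 had 9 and 15 counts and was below the filter, and its receptor chains IL6R (-0.10) and IL6ST (-0.03), named after their values were seen, were close to 0.

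All 21 signalling and transcription factor names were found and 19 tested, with a median log2 ratio of -0.01 and 1 over 2-fold higher in CW1. That was HNF4A, a nuclear receptor that hepatocytes need for their identity, at 16.9 TPM in CW1 and 0.71 TPM in CW2 (log2 ratio 4.01). Its 18 counts in CW2 are under 1 CPM, so it met the filter through CW1 and had to be higher there. FOXA2, below the filter, had 12 counts in CW1 and 0 in CW2, at least 4.80-fold higher against a floor of 3 counts in CW2. The 4 highest of this list were all within 2-fold: NFKBIA was at 123 TPM in CW1 and 153 TPM in CW2, JAK1 at 78.5 and 95.3, MYD88 at 55.6 and 72.2, and CEBPB at 51.9 and 58.6. Their log2 ratios were -0.09, -0.09, -0.08 and 0.15 in that order. STAT3 (0.09) and its feedback inhibitor SOCS3 (0.09), named after their values were seen, had log2 ratios near 0. TRAF6, also named after its value was seen, was 0.671-fold (95% counting interval 0.542 to 0.829), outside counting error but within 2-fold.

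Of the 24 receptors, partners and targets of the members, 19 were found, 14 were tested and 0 were over 2-fold apart, with a median log2 ratio of 0.05. With a pseudocount of 0.1 CPM 2 were over 2-fold apart, and with TPM in place of counts 1 was. No test was possible for any of these counts, in which 1 library is set against 1 library. The 4 highest were AGER, a receptor for serum amyloid A that is abundant in alveolar type I cells, at 456 TPM in CW1 and 729 TPM in CW2, and the C1q chains C1QC (91.6 and 129 TPM), C1QA (70.3 and 96.0 TPM) and C1QB (69.1 and 93.5 TPM). Their log2 ratios were -0.24, 0.06, 0.10 and 0.14 in that order. The LPS receptor genes that act after LBP, named after their values were seen, were measured too. CD14 was at 69.8 TPM in CW1 and 53.2 TPM in CW2, TLR4 at 10.3 and 22.6, and LY96 at 6.48 and 11.1. In log2 ratio CD14 was at -0.01, TLR4 at -0.22 and LY96 at -0.29, all within 2-fold. The TPM pairs, which lack the scaling, thus overstate the TLR4 difference and place CD14 higher in CW1, which its ratio does not. The neutrophil proteases that the serpins inhibit were near 0, with 0 counts of ELANE in CW1 and 1 in CW2, and 0 of CTSG in both. LAG3, which FGL1 binds, was at 2.36 TPM in CW1 and 1.12 TPM in CW2, from 32 and 15 counts.

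**Figure D5:**
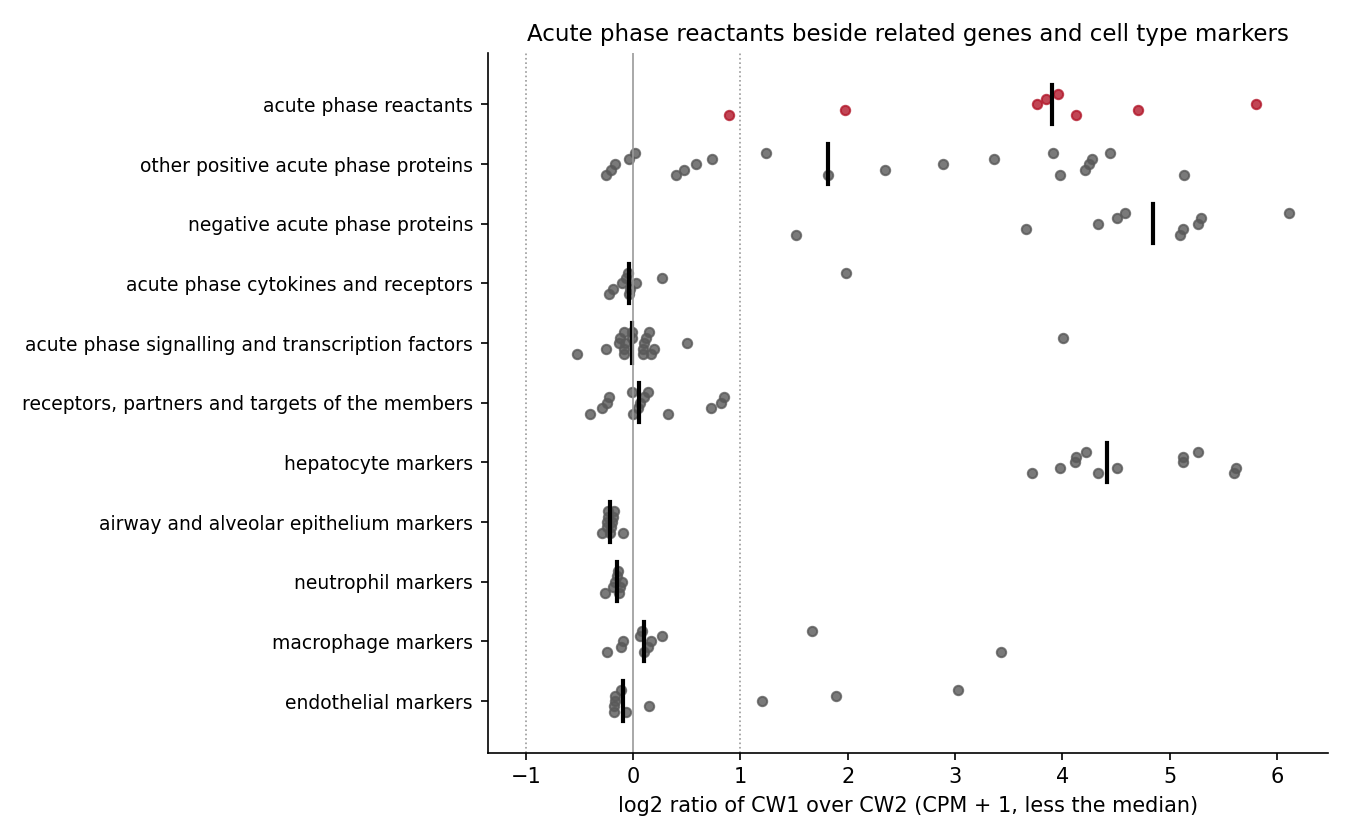
Log2 ratio of CW1 over CW2 (horizontal) for each tested gene, in rows for the acute phase reactants (red), 5 related lists and 5 lists of cell type markers; black bars are medians, the solid line is 0 and dotted lines mark 2-fold. Acute phase reactants (median 3.90), negative acute phase proteins (4.84) and hepatocyte markers (4.42) lie to the right, and the cytokine, signalling, airway and neutrophil lists lie near 0.

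The lists of other cell type markers had medians between -0.22 and 0.10, with exceptions among macrophage and endothelial markers. Airway and alveolar markers had a median log2 ratio of -0.22, with SCGB3A1 at 8069 TPM in CW1 and 12898 TPM in CW2. Of these 12 markers, 11 reached 10 TPM in CW1 and 12 in CW2. SCGB1A1, the defining club cell secretoglobin, had 1 count in CW1 and 24 in CW2. Neutrophil markers, summing to 993 TPM in CW1 and 1465 TPM in CW2, had a median of -0.15, although MPO was at 0 counts in both. Macrophage markers (592 and 756 TPM) had a median of 0.10, with MARCO (3.43) and CD5L (1.67) over 2-fold higher in CW1. CD5L had 43 counts in CW1 and 2 in CW2, under 1 CPM, so it had to be higher in CW1. Endothelial markers (291 and 275 TPM) had one of -0.09, with CLEC4G (3.02), STAB1 (1.89) and STAB2 (1.20), genes of liver sinusoidal endothelium, over 2-fold higher in CW1. LYVE1, also expressed there and in lymphatic endothelium, had a log2 ratio of -0.07. The part of these cells in the members' values was not tested.

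Among 4100 other names with at least 1000 summed counts, the 5 whose log2 ratio lay closest to the members' median of 3.90 were SORD (3.90), FGG (3.91), APOA4 (3.96), LIPC (3.97) and GPT (3.82). Likeness here is the difference in 1 ratio between 2 libraries. The sorbitol-oxidising enzyme SORD was at 83.0 TPM in CW1 and 5.43 TPM in CW2, and the alanine aminotransferase GPT at 257 and 10.3 TPM.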

How the data were processed

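RNA was measured in 2 libraries of 1 group, with replicate numbers from the sample titles. The design allows no p-value, and none is given. Per the file headers, the features are 55378 Trinity-assembled genes with Swiss-Prot best matches, and the deposited expected counts are estimates with decimals. The deposited values without a unit in their header were read as TPM, since they sum to 996837 and 996239. Cutadapt 1.9 is listed for each library and mm10 for replicate 1, per the submitters' processing notes; the assembler's version and the quantifier are not given in the sources used here, and how a mouse build was used is not given either. A best match does not show a transcript's species, and near-identical copies can divide reads. Of the 55378 assembled genes, 30192 have no name and held 8.70% of counts in replicate 1 and 9.69% in replicate 2; they stayed in the library totals.

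Counts were rounded to whole numbers and summed by name. TMM factors came from edgeR 4.0.16 in R 4.3.3 (0.910 and 1.10). Ratios used a pseudocount of 1 CPM, a filter at a mean of 1 CPM, and removal of the median (0.014). Fold intervals are exact Clopper-Pearson intervals on counts; a fold and its interval use scaled counts without a pseudocount. The floor of 3 counts is 0.160 CPM in either library. The ratio was tested on simulated counts. DESeq2 1.42.0 size factors were an alternative. The other steps ran in Python 3.11.15 (scipy 1.17.1, pandas 2.3.3, numpy 2.4.6) with figures from matplotlib 3.10.9. The symbols of 6 of 10 members are in the RefSeq table of ASM189008v1. Named genes are the members, the 4 highest and every over-2-fold gene of each related list, and the 5 nearest names. Members and lists were chosen with earlier results of these data known. Planned comparisons of promoters and protein sequences were not run. Some genes of the related lists enter the counts and medians but are not reported here by name.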

Additional observations from a re-analysis of the deposited data

How the results depend on the processing

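Alternatives were other scalings (library size, DESeq2 size factors), a pseudocount of 0.1 CPM, no filter or a mean of at least 10 CPM, TPM in place of counts, the largest assembled gene of a name only, and the median kept. Leaving out assembled genes with mouse best matches, the 8-fold threshold and the gene ontology list were chosen after seeing the data. All 8 members kept their direction under each of these. LBP stayed within 2-fold under all 8 of its alternatives (0.89 to 0.99) and the other 7 stayed over 2-fold where tested; at a mean of at least 10 CPM, LBP and SERPINA1 were not tested and 6 members were over 2-fold apart. The members' median log2 ratio of 3.90 moved to 4.65 with a pseudocount of 0.1 CPM, which shrinks low-count ratios less, and to 4.44 with TPM. The names over 2-fold apart, 586 in all, were 343 under the 10 CPM filter, which tests fewer names, and 1122 with TPM, for which the cause was not tested. The related lists held 24 such genes and the other names with an acute-phase response term 5, being a smaller list. Without each replicate in turn, 4 to 7 members reached 10 TPM and the summed member TPM, 1319 as a mean, ranged from 110 to 2527. No paired analysis was possible because the data hold a single group. Depth limits the replicate 2 values of SAA1 and SERPINA1, at 11 and 8 counts; the spread between animals is unknown.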
